A study of Mus musculus with 8 samples.

Results

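miR-7 is a small family of microRNAs with a high level in pancreatic beta cells and other neuroendocrine cells. The sequences described here are all those in the deposited table of small RNAs from MIN6B1 cells whose annotation names mouse miR-7a or miR-7b, on either arm of the hairpin. The table holds 11568 distinct sequences, of which 652 carry a mature miRNA name, and 37 met the rule. Of these 37, 15 were named miR-7a-5p, 19 miR-7b-5p, 2 miR-7a-2-3p and 1 miR-7a-1-3p. No listed sequence carried the name miR-7b-3p.

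MIN6B1 is a mouse insulinoma line, a subline of MIN6, used as a model of the beta cell. All cells were transiently transfected with Lipofectamine 2000, either with a control plasmid (pCDNA) or with a plasmid for the fusion methyltransferase HENMT1ΔC-T6B (pMIME). Total RNA from each was then left unoxidized (water) or oxidized with sodium periodate (NaIO4) before small-RNA libraries were made. This gave 4 groups of 2 libraries. The labels do not say that the 2 libraries of a group came from separate cultures, so the p-values measure the spread between libraries, which may be technical.

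miR-7 guides Argonaute proteins to target mRNAs through its seed, and in beta cells it is known to restrain mTOR signalling and insulin secretion. The circular RNA Cdr1as binds it, and the long RNA Cyrano directs its decay, with tailing and trimming of its 3′ end. HENMT1 adds a methyl group to the 3′ end of piRNAs, and the T6B peptide, taken from TNRC6B, binds Argonautes. Periodate destroys an unmethylated 3′ end and blocks its ligation into a library, so the design asks which small RNAs acquire a protected end when the fusion is present.

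miR-7a-5p and miR-7b-5p differ at position 10, outside the seed, and by the last base of the annotated form. They are shown because the results turn on their 3′ ends. The RefSeq mature sequences (build GRCm38.p6) are given 5′ to 3′ with the seed, bases 2 to 8, in capitals.
mmu-miR-7a-5p: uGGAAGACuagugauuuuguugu
mmu-miR-7b-5p: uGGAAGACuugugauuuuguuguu
mmu-miR-7a-2-3p: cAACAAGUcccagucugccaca
mmu-miR-7a-1-3p: cAACAAAUcacagucugccaua
miR-7a-5p is made from 2 hairpins, Mir7-1 and Mir7-2, with the same mature sequence. Mir7-1 lies on the minus strand at chr13:58392779-58392886, in an intron of Hnrnpk in all 34 transcripts annotated by GENCODE. Mir7-2 lies at chr7:78888277-78888373 and Mir7b at chr17:56242988-56243098, both on the plus strand and outside annotated genes. The 5p arms share one seed, and the 3p arms of miR-7a-1 and miR-7a-2 differ from each other within theirs.

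The forms that the results on length and 3′ ends turn on are written as DNA, as the table has them, with the seed in capitals.
miR-7a-5p, 22 nucleotides: tGGAAGACtagtgattttgttg
miR-7a-5p, 23 nucleotides: tGGAAGACtagtgattttgttgt
miR-7a-5p, 24 nucleotides: tGGAAGACtagtgattttgttgtt
miR-7a-5p, 25 nucleotides ending in T: tGGAAGACtagtgattttgttgttt
miR-7a-5p, 25 nucleotides ending in G: tGGAAGACtagtgattttgttgttg
miR-7b-5p, 23 nucleotides: tGGAAGACttgtgattttgttgt
miR-7b-5p, 24 nucleotides: tGGAAGACttgtgattttgttgtt
miR-7b-5p, 24 nucleotides plus T: tGGAAGACttgtgattttgttgttt
The authors' annotation of miR-7a-5p ends at 23 nucleotides, so its 24-nucleotide form was listed as matching the hairpin only. It is not one of the 37 sequences, yet outside oxidized control RNA it had more counts than any of them, and it is followed beside them as a related form. The 25th base is T in the Mir7-1 hairpin, G in Mir7-2 and C in Mir7b. A 25-nucleotide miR-7a-5p ending in T may thus be templated by Mir7-1 or carry an added uridine, which cannot be told apart, whereas the T on miR-7b-5p is not templated.

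Listed counts ran from 295094 to 6641250 per library, lowest in the 2 oxidized control libraries. Every listed sequence had at least 2 counts in both oxidized methyltransferase libraries and 10 or more in their sum, so a form lost from that group would not be seen here. The 37 sequences took 12.1% and 14.8% of mature miRNA counts in unoxidized control RNA, and the names miR-7a-5p and miR-7b-5p ranked 4 and 9 of 172 by summed count. All 5 beta-cell or islet marker miRNAs were listed and together took 11.6% to 37.6% of mature counts, while none of the acinar (3), muscle (3), blood and immune (5) or mesenchymal (5) markers was listed. The 5 include miR-7a-5p and miR-7b-5p. The 5 epithelial markers took 0.893% to 2.12%, the 3 neural ones 0.0337% to 0.155% and the liver marker miR-122-5p 0% to 0.0395%.

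Oxidation of RNA from control cells removed nearly all full-length miR-7, and with the methyltransferase it did not. The 23-nucleotide miR-7a-5p, the most abundant of its name, had 257381 and 370675 counts in unoxidized control RNA and 204 and 188 after oxidation. With the methyltransferase it had 97237 and 143782 counts before oxidation and 57729 and 30034 after it. The oxidized control libraries were far below all others, and no 2 groups overlapped. In edgeR's quasi-likelihood test with Benjamini-Hochberg adjustment over all 9851 sequences tested, this form was higher with the methyltransferase in oxidized RNA by 7.84 on the log2 scale (SE 0.53, adjusted p = 9.71e-07).

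The 24-nucleotide miR-7b-5p, the most abundant of its name, had 62035 and 105013 counts in unoxidized control RNA and 18 and 28 after oxidation. With the methyltransferase it had 39967 and 66364 counts before and 33988 and 25821 after. The oxidized control libraries again stood apart from all others, and in control cells its oxidized and non-oxidized counts did not overlap. Its level in oxidized RNA was higher with the methyltransferase by 10.36 on the log2 scale (SE 0.65, adjusted p = 7.68e-07, edgeR). The 24-nucleotide miR-7a-5p had 51 and 171 counts after oxidation of control RNA, while oxidized methyltransferase RNA held 117530 and 74978. Its log2 difference was 9.67 (SE 0.82, adjusted p = 3.26e-06, edgeR).

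**Figure D1:**
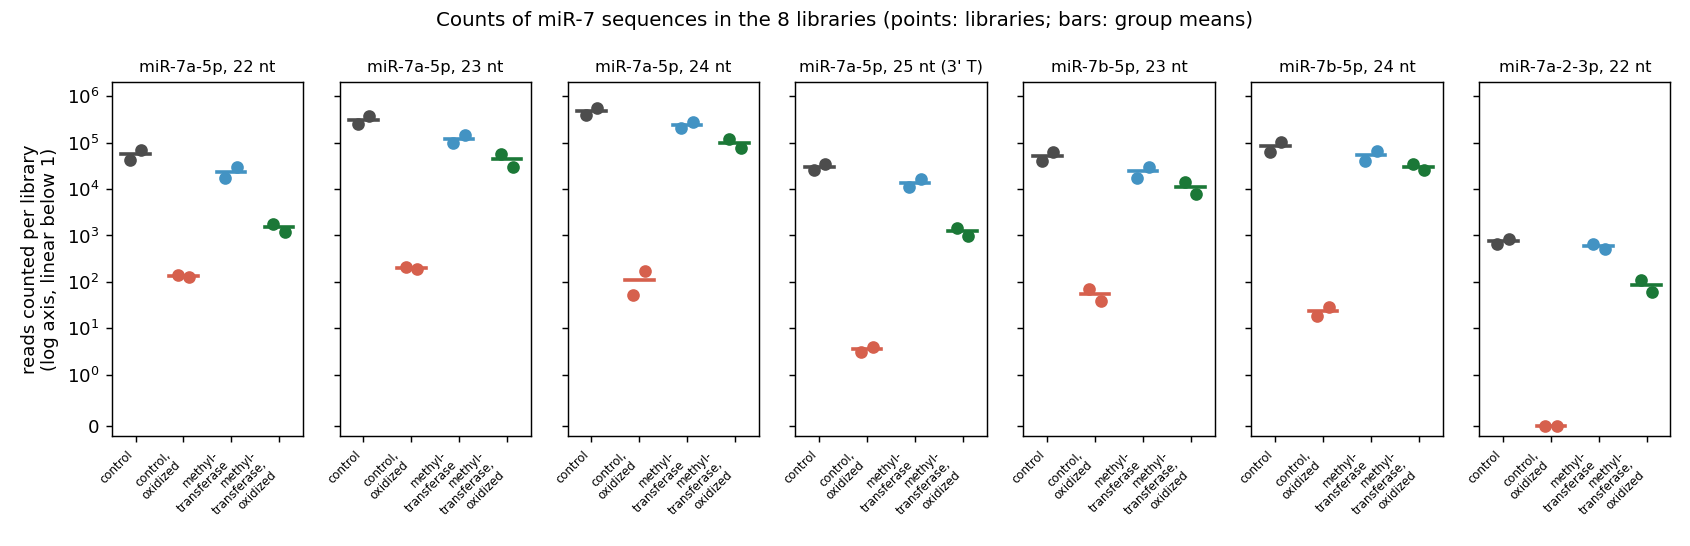
Reads counted per library (log axis) for 7 miR-7 sequences, with points for the 2 libraries of each group and bars for group means. The oxidized control libraries are the lowest for every sequence, at 0 for miR-7a-2-3p.

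The 3p arm was lost from the same libraries as the 5p arm. The 22-nucleotide miR-7a-2-3p had 645 and 840 counts in unoxidized control RNA, 0 and 0 in oxidized control RNA, 641 and 516 with the methyltransferase and 109 and 61 with both. Taking 3 counts per library as the floor, it was at least 312-fold lower on oxidation of control RNA on the TMM scale. In oxidized RNA the methyltransferase group was at least 28.8-fold higher on that scale. Both bounds hold for TMM only and would be smaller under total-count scaling. That scaling moved the median of all sequences by 4.34 on the log2 scale for the first comparison and by -2.99 for the second. miR-7a-1-3p had 20 and 41 counts in unoxidized control RNA, 0 and 0 when oxidized, 17 and 23 with the methyltransferase and 9 and 20 with both. With so few counts no size is drawn from it. On oxidation of methyltransferase RNA the 22-nucleotide miR-7a-2-3p fell by 3.06 (SE 0.44, adjusted p = 0.000906, edgeR).

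Of the 37 sequences, 36 passed the filter on low counts, the exception being a 23-nucleotide miR-7b-5p with a changed first base. Because a sequence could pass through a single high group, the counts that follow describe those 36. In oxidized RNA 25 were called higher with the methyltransferase and 1 lower, where 42.3% of all sequences tested were called higher and 3.92% lower. Oxidation of control RNA called 29 lower, against 46.4% of all sequences, and none higher, against 18.4% of all. Oxidation with the methyltransferase called 12 lower, against 11.2% of all, and none higher, against 1.77% of all, with 6 lower under total-count or upper-quartile scaling and 7 without library 2 of either methyltransferase group. The interaction of plasmid and oxidation, which tests whether oxidation acted differently under the 2 plasmids, was positive for 24 of the 36, against 39.6% of all, and negative for none, against 3% of all. Among all sequences, 91.5% of the calls for the plasmid in oxidized RNA were higher, a share that fell to 36.4% when libraries were scaled by total counts. That scaling moved the median of all sequences by -2.99 on the log2 scale for this comparison and by 4.34 for oxidation of control RNA. Under it 16 of the 36 were called higher and 11 lower, against 2743 and 4794 of all 9851 sequences. For oxidation of control RNA it called 20 of the 36 lower and 9 higher, against 2331 and 5202 of all. For the interaction it called 14 positive and 10 negative, against 1992 and 4110 of all. For oxidation of methyltransferase RNA total-count scaling called 630 of all sequences lower, and upper-quartile scaling 700. With miRNA sequences fitted alone, 865 were tested. For the plasmid in oxidized RNA the 36 split into 8 higher and 13 lower, against 339 and 98 of the 865. Oxidation of control RNA gave 10 lower and 12 higher, against 411 and 91. Oxidation of methyltransferase RNA gave 6 lower and 5 higher, against 194 and 157. The interaction was positive for 7 and negative for 12, against 310 and 91. The direction of many miR-7 sequences therefore depended on the scaling. Among all sequences, total-count scaling took the share of higher calls from 28.4% to 69.1% for oxidation of control RNA. The share went from 13.7% to 61.5% for oxidation of methyltransferase RNA and from 93.0% to 32.6% for the interaction. The main sequences of miR-7a-5p and miR-7b-5p kept a positive call for the plasmid in oxidized RNA under every alternative run, with log2 differences of 3.67 to 8.59 and of 6.22 to 10.99.

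The sequences not called higher were the short ones. Of the 11 without such a call in oxidized RNA, 10 were the canonical-start forms of 16 to 20 nucleotides, 5 for each miRNA, and 1 was a 21-nucleotide miR-7a-5p with a changed first base. The 16-nucleotide miR-7a-5p was the 1 called lower, at -1.004 (SE 0.36, adjusted p = 0.0377, edgeR), a call lost without any 1 of the 8 libraries (adjusted p of 0.0601 to 0.326). It had 491 and 634 counts in unoxidized control RNA, 680 and 496 in oxidized control RNA, 193 and 214 with the methyltransferase and 297 and 250 with both. In raw counts its 4 groups lay within a few-fold of each other, and the control groups overlapped. Relative to listed totals the control groups did not overlap, since these were 5387014 and 6641250 before oxidation and 438363 and 295094 after it. The change of this 16-nucleotide form on oxidation of control RNA was -0.31 (SE 0.35, adjusted p = 0.453, edgeR). Total-count scaling turned this to 4.12. It matches 5 places in the genome, where the 23-nucleotide form matches 2, so part of its count may come from elsewhere. The 20-nucleotide miR-7a-5p had 2101 and 3276 counts in control RNA as extracted, 446 and 347 once oxidized, 967 and 1315 with the methyltransferase and 395 and 355 with both. It lay between the 16-nucleotide form and the longer ones, falling by 3.13 on oxidation of control RNA (SE 0.39, adjusted p = 3.1e-05, edgeR), a change that total-count scaling turned to 1.31.

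Sequences with a changed or unread first base made up 6 of the miR-7a-5p and 8 of the miR-7b-5p names, and 1 and 2 more started at base 2. The unread ones, listed with N as the first base, occurred under both names. The 24-nucleotide miR-7b-5p beginning with C had 144 and 263 counts in control RNA as extracted and 0 and 0 after oxidation. With the methyltransferase it had 193 and 259 counts, and 226 and 148 once oxidized, and those 2 groups overlapped. Together the canonical-start sequences held at least 98.9% of the counts of either name in each library.

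Within a library the length of miR-7 can be described with no scaling between libraries. Among canonical-start miR-7a-5p counts of 16 to 26 nucleotides, those of 20 or fewer made up 0.454% and 0.462% in unoxidized control RNA but 74.3% and 68.4% after oxidation. With the methyltransferase they made up 0.493% and 0.424% before oxidation and 0.536% and 0.815% after it. The 23- and 24-nucleotide forms together made up 88.8% and 87.7% in unoxidized control RNA, 11.1% and 18.2% when it was oxidized, 89.8% and 87.9% with the methyltransferase and 96.9% and 96.0% with both. Oxidized methyltransferase RNA was thus the group richest in these 2 lengths, above every other library. miR-7b-5p gave the same order, with 93.3% and 93.0%, 17.1% and 16.1%, 94.4% and 94.1%, and 98.3% and 98.1% for the 4 groups. With 2 libraries against 2, the exact permutation test (two-sided) cannot go below p = 0.333, so no within-library comparison can reach 0.05.

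**Figure D2:**
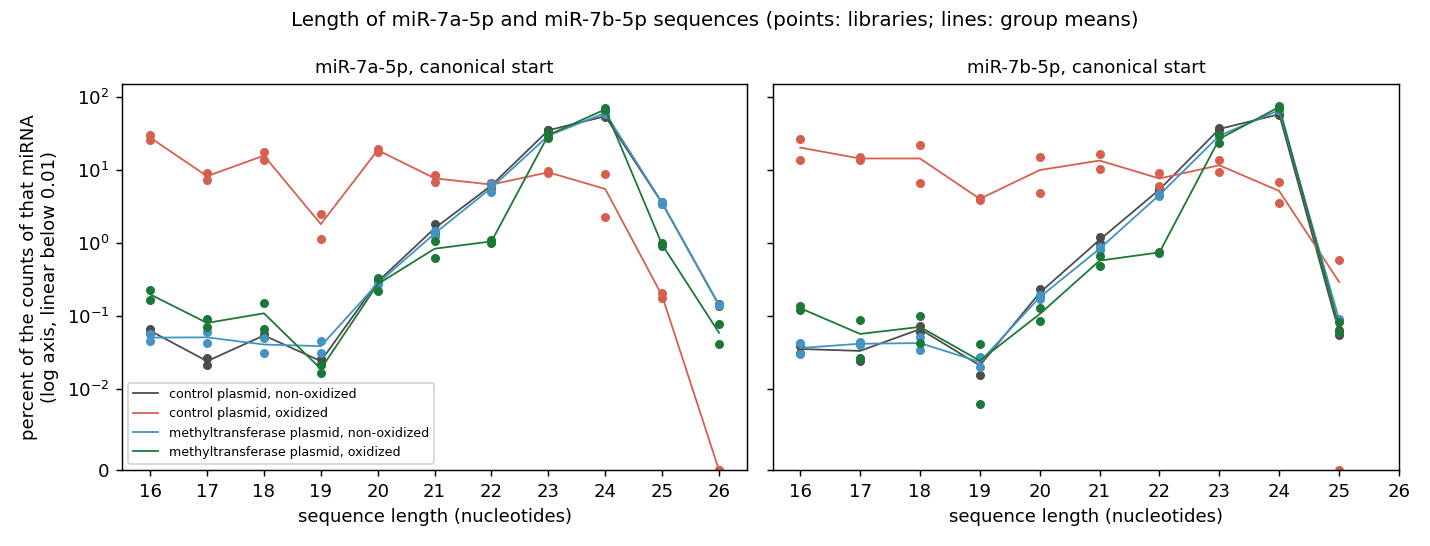
Percent of canonical-start counts (log axis) at each length from 16 to 26 nucleotides for miR-7a-5p and miR-7b-5p, with points for libraries and lines for group means. The oxidized control libraries hold most counts at 20 nucleotides or fewer, and the other 3 groups peak at 24.

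Loss with oxidation in methyltransferase RNA differed between lengths. The 22-nucleotide miR-7a-5p had 16952 and 30533 counts before oxidation and 1795 and 1197 after, and fell by 4.25 on the log2 scale (SE 0.45, adjusted p = 7.72e-05, edgeR). The 23-nucleotide form fell by 1.74 (SE 0.40, adjusted p = 0.0133, edgeR). The 24-nucleotide form changed by -1.62 (SE 0.58, adjusted p = 0.0992, edgeR), which did not pass. It passed in 4 of the 17 alternatives run: limma-voom (adjusted p = 0.0221), only the libraries compared (0.0272), and without either oxidized control library (0.00222 and 0.00200). Over those 17 the change ran from -1.81 to -0.225 and the adjusted p from 0.00200 to 0.712. The call for the 23-nucleotide form was lost under total-count scaling (adjusted p = 0.0834), upper-quartile scaling (0.113) and when miRNA sequences were fitted alone (0.323), and without library 2 of either methyltransferase group (0.0778 non-oxidized, 0.129 oxidized). For miR-7b-5p the 22-nucleotide form fell by 3.85 (SE 0.44, adjusted p = 0.000133, edgeR). The 24-nucleotide form changed by -1.08 (SE 0.44, adjusted p = 0.143, edgeR), with the opposite sign, 0.31, when miRNA sequences were fitted alone.

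Relative to the 24-nucleotide form of the same library, the 22-nucleotide miR-7a-5p stood at a log2 ratio of -3.64 and -3.18 in methyltransferase RNA and -6.03 and -5.97 once it was oxidized. The 22-nucleotide miR-7b-5p stood at -3.90 and -3.79, then -6.55 and -6.66. The 23-nucleotide forms moved far less, from -1.12 and -0.94 to -1.03 and -1.32 for miR-7a-5p, where the groups overlapped, and from -1.18 and -1.13 to -1.22 and -1.69 for miR-7b-5p. The 16-nucleotide miR-7a-5p stood higher relative to the 24-nucleotide form, from -10.10 and -10.34 to -8.63 and -8.23. The exact permutation test gave p = 0.333 for each pair of groups that did not overlap, the smallest it allows.

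**Figure D3:**
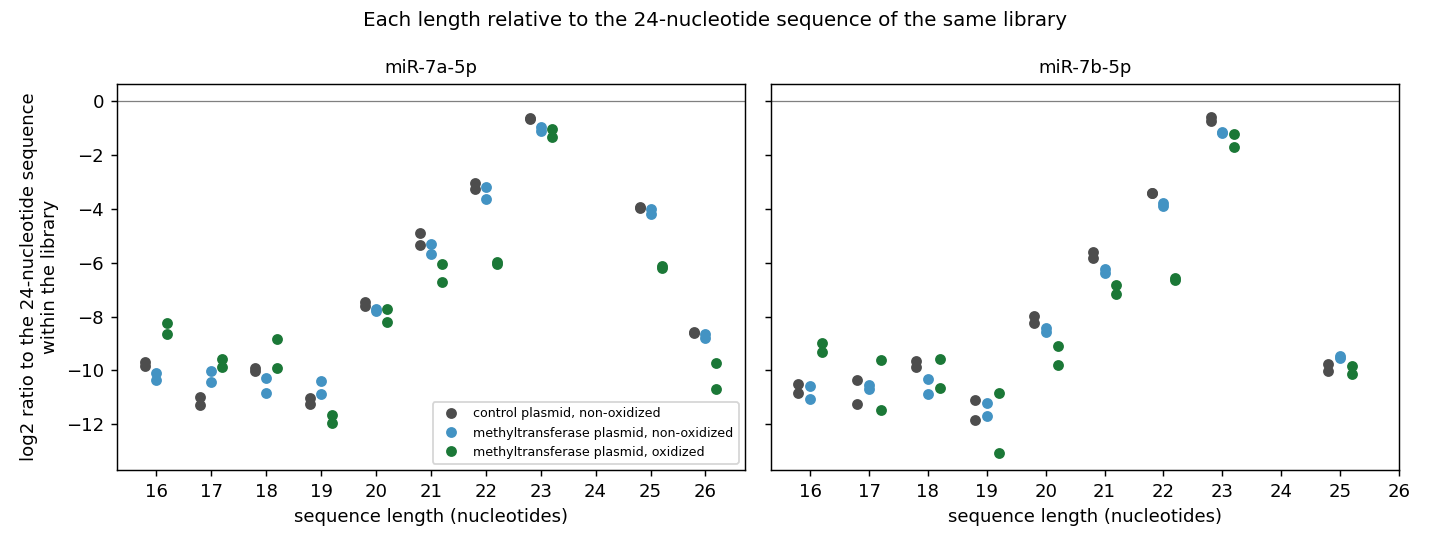
Log2 ratio of each length to the 24-nucleotide form of the same library in 3 groups, with points for libraries. In oxidized methyltransferase RNA the 22-nucleotide forms lie at about -6 for miR-7a-5p and near -6.6 for miR-7b-5p, below both non-oxidized groups.

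Forms longer than 24 nucleotides also lost ground with oxidation. The 25-nucleotide miR-7a-5p ending in T had 10952 and 16494 counts in methyltransferase RNA and 1462 and 986 after oxidation, and fell by 3.75 (SE 0.41, adjusted p = 9.03e-05, edgeR). The form ending in G, which Mir7-2 templates, had 715 and 973 and then 158 and 95, and fell by 3.01 (SE 0.44, adjusted p = 0.00069, edgeR). The 24-nucleotide miR-7b-5p plus an untemplated T had 1457 and 2605 and then 240 and 148, and fell by 3.65 (SE 0.48, adjusted p = 0.000341, edgeR).

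Counted against the 24-nucleotide form, 25-nucleotide miR-7a-5p ending in T went from 5.18% and 5.96% to 1.24% and 1.31% on oxidation of methyltransferase RNA. The same sequence ending in A, which no hairpin templates, went from 1.11% and 1.22% to 0.648% and 0.660%. For miR-7b-5p the added T went from 3.65% and 3.92% to 0.706% and 0.573%, and the added A from 0.876% and 0.979% to 0.509% and 0.453%. In all 4 cases the oxidized libraries lay below the non-oxidized ones. The templated C of miR-7b-5p went from 0.135% and 0.140% to 0.088% and 0.108%, on 30 and 28 counts in the oxidized libraries.

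Other abundant miRNAs showed length changes of the same kind. Among the 20 most abundant names, the form 2 nucleotides shorter than the commonest length was lower against it after oxidation of methyltransferase RNA in 16 of the 19 that could be measured, with a median log2 change of -2.76 and a range of -4.83 to 3.22. miR-7a-5p stood at -2.59 and miR-7b-5p at -2.76. The form 1 nucleotide longer was lower in 14 of 20, with a median of -0.97, where miR-7a-5p stood at -2.07 and miR-7b-5p, whose templated base is C, at -0.49.

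At 21 to 24 nucleotides miR-7b-5p stood higher relative to miR-7a-5p of the same length in oxidized methyltransferase RNA than in either unoxidized group. Shorter forms, on fewer counts, did not all do so: at 20 nucleotides the oxidized methyltransferase libraries, at 15.95% and 8.17%, spanned the unoxidized ones, at 9.66% to 13.2%. At 24 nucleotides the miR-7b-5p count was 15.3% and 18.4% of the miR-7a-5p count in unoxidized control RNA and 18.9% and 24.0% with the methyltransferase. After oxidation of the latter it was 28.9% and 34.4%, above both non-oxidized groups. Oxidized control RNA gave 35.3% and 16.4%, on 18 and 28 counts of miR-7b-5p. At 23 nucleotides the percentages were 15.9 and 17.0, 18.1 and 21.1, and 25.2 and 26.6 for control, methyltransferase and oxidized methyltransferase RNA.

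Over all sequences of each name, the log2 ratio of miR-7a-5p to miR-7b-5p was 1.504 and 1.366 in unoxidized control RNA, 2.13 and 2.12 when oxidized, 0.98 and 0.84 with the methyltransferase, and 0.32 and -0.05 with both. The last value was the only one below 0, and no groups overlapped (exact permutation p = 0.333, adjusted over 4 pairs of groups 0.333). Because the annotation ends at 23 nucleotides for miR-7a and at 24 for miR-7b, this ratio leaves out the 24-nucleotide and longer forms of miR-7a. With hairpin-only forms counted, these were 56.7% to 69.5% of miR-7a-5p in 3 of the groups and 2.55% and 8.92% in oxidized control RNA. With hairpin-only forms added it was 2.76 and 2.57, 2.16 and 2.25, 2.50 and 2.22, and 1.87 and 1.67, and the change on oxidation of control RNA turned from 0.69 to -0.46.

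**Figure D4:**
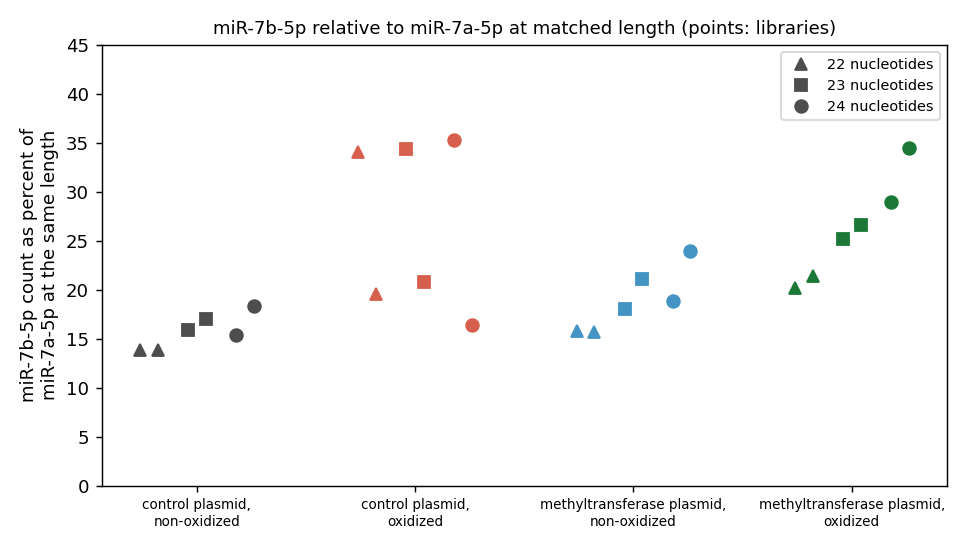
miR-7b-5p count as a percent of the miR-7a-5p count at 22, 23 and 24 nucleotides in each library, by group. Oxidized methyltransferase RNA lies above both non-oxidized groups at each length, while the 2 oxidized control libraries, which rest on few counts, lie far apart.

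Within the mature miRNA pool, miR-7a-5p took 8.94% and 10.7% of counts in unoxidized control RNA and 5.38% and 6.04% with the methyltransferase. Oxidized methyltransferase RNA held 3.04% and 2.04%, and oxidized control RNA 16.4% and 17.9%. The share was thus lowest with both treatments and highest in the pool that oxidation had depleted, where it rests mostly on the short forms. Counting the 23-nucleotide form alone, oxidized control RNA held only 1.48% and 1.86%. With hairpin-only forms in both the count and the total, miR-7a-5p took 17.2% and 19.9%, 16.4% and 18.8%, 12.96% and 13.38%, and 8.06% and 6.16% for unoxidized control, oxidized control, methyltransferase and oxidized methyltransferase RNA. miR-7b-5p took 3.15% and 4.14%, 3.74% and 4.12%, 2.73% and 3.38%, and 2.44% and 2.12% for the groups in order of non-oxidized control, oxidized control, methyltransferase and oxidized methyltransferase RNA.

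Between the plasmids in unoxidized RNA no miR-7 sequence was called. edgeR called 0 of all 9851 sequences in either direction there. At an unadjusted p under 0.05 it had 392 sequences up and 466 down, and 12 of the 36 miR-7 sequences were among the latter. DESeq2's Wald test gave an adjusted p to 28 of the miR-7 sequences and called 3 of them lower. Among all sequences it called 68 lower and 36 higher, and limma-voom called none. The 23-nucleotide miR-7a-5p changed by -1.41 (SE 0.40, adjusted p = 0.304, edgeR) and the 24-nucleotide miR-7b-5p by -0.68 (SE 0.43, adjusted p = 0.700, edgeR). In bulk RNA of this kind, fewer cells with miR-7 and less miR-7 per cell cannot be told apart.

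Substitutions in miR-7a-5p gathered at one base. Positions are counted from 1 at the 5′ end, and the base of miR-7a is given first. In the 24-nucleotide form, listed substitutions of the G at position 13 summed to 8.45% and 3.74% of the unsubstituted count in unoxidized control RNA. They summed to 18.3% and 6.43% with the methyltransferase and to 27.4% and 20.96% when it was oxidized. The most frequent was G13T, which is printed with the seed in capitals.
miR-7a-5p, 24 nucleotides, G13T: tGGAAGACtagttattttgttgtt
The median over the other positions was 0.25% in library 1 of unoxidized control RNA and 0.78% in library 1 of oxidized methyltransferase RNA, so other positions were also higher there. Library 1 stood above library 2 in each of these 3 groups, and the cause was not tested. In library 1 of unoxidized control RNA, miR-129-5p reached 17.5% (position 21) and miR-200c-3p 12.05% (position 23). Both are the last base at the commonest length, a base not counted for miR-7. Away from the last base, miR-141-3p reached 3.54% at position 15 in that library and 13.2% in library 1 of oxidized methyltransferase RNA. Position 13 was also the highest of let-7c-5p, at 1.62% in library 1 of unoxidized control RNA.

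miR-7b-5p carried fewer, with 1.94% and 0.455%, 4.07% and 0.835%, and 5.45% and 3.68% at position 13 for the same groups. The level was lower than in miR-7a-5p in each of the 6 libraries, and position 13 did not stand out in miR-7b-5p as it did in miR-7a-5p. Position 10 of miR-7b-5p was higher in 5 of the 6, with 3.25% and 2.41% in unoxidized control RNA, and in library 2 of that group positions 5, 7 and 9 also lay above position 13. The position 10 variants of the 2 miRNAs are the same sequences, A10G and A10C of miR-7a-5p, since the miRNAs differ at that base. Adding the position 13 variants of both miRNAs to the counts narrowed the difference at 24 nucleotides on oxidation of methyltransferase RNA. The log2 change in the ratio of miR-7a to miR-7b went from -0.57 to -0.45. Since miR-7b differs from miR-7a at position 10, substitution of miR-7a there could pass for it. The other 2 changes of that base, A10G and A10C, reached 0.326% and 0.172% of the 24-nucleotide miR-7a-5p in library 1 of unoxidized control RNA. In library 1 of oxidized methyltransferase RNA they reached 0.893% and 0.602%. The change to T gives miR-7b-5p itself, so its rate cannot be seen here, and this source was not tested.

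**Figure D5:**
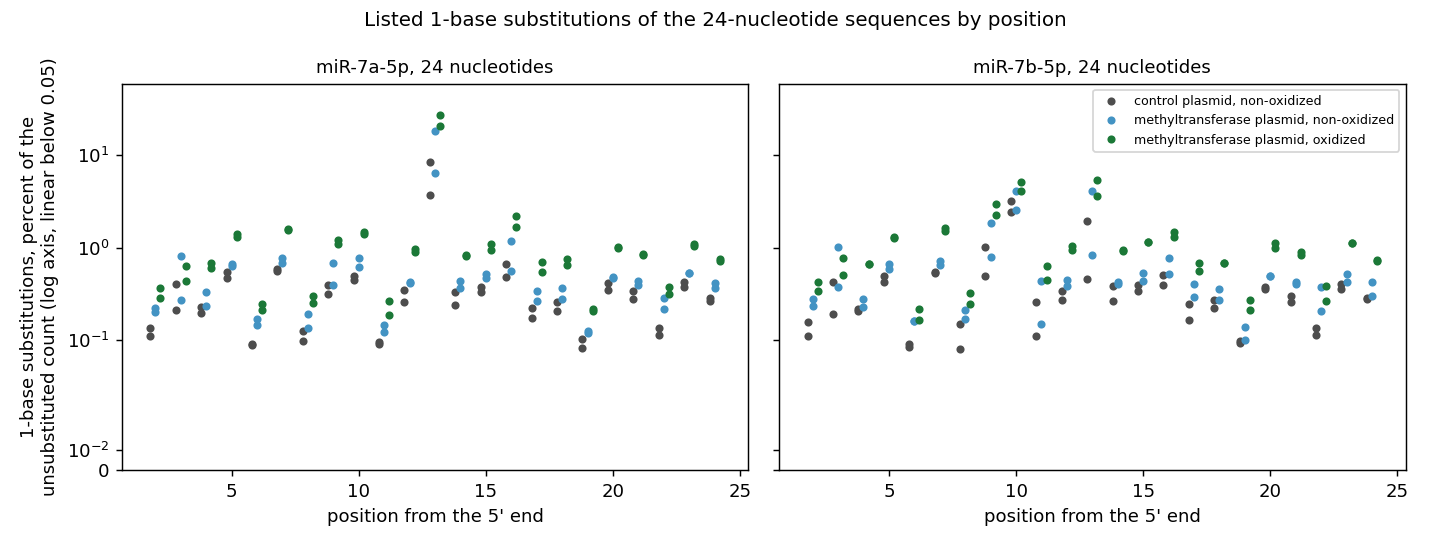
Listed 1-base substitutions at each position of the 24-nucleotide forms, as a percent of the unsubstituted count (log axis), with points for libraries of 3 groups. Position 13 of miR-7a-5p reaches 27.4%, while the median over other positions is under 1%.

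Among the leading named sequences of the 20 most abundant miRNAs, miR-7b stood near the middle and the 23-nucleotide miR-7a lower. All 20 were called higher with the methyltransferase in oxidized RNA, against 42.3% of all sequences tested. Their log2 differences ran from 5.08 to 12.61 with a median of 9.96, where miR-7a-5p ranked 15 and miR-7b-5p ranked 8. These 2 ranks compare different lengths. The more abundant 24-nucleotide miR-7a-5p was not ranked, as its annotation is hairpin-only, and its difference, given above, lay closer to that median. Oxidation with the methyltransferase called 7 of the 20 lower, against 11.2% of all sequences. The median of the 20 was -1.09, which turned to 0.31 with miRNA sequences fitted alone. Over the 8 libraries, the pattern of the 23-nucleotide miR-7a-5p in centred log2 CPM was nearest, among the 50 most abundant miRNAs, to that of miR-103-3p (root mean square difference 0.36), miR-429-3p (0.41) and miR-744-5p (0.44). Of these, miR-103-3p and miR-429-3p had 0 counts in both oxidized control libraries.

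A list of 28 other miRNAs known in beta cells was followed in the same fit, and 24 were listed and tested. All 24 were called higher with the methyltransferase in oxidized RNA, against 42.3% of all sequences tested. The median log2 difference of the 24 was 7.91, where the median of all sequences was 0.82. With miRNA sequences fitted alone 16 were called higher, against 339 of all 865. Every listed sequence had counts in both oxidized methyltransferase libraries, so a miRNA lost from that group would not be listed, and these calls describe the 24 only. Oxidation of methyltransferase RNA called 18 of the 24 lower, against 11.2% of all sequences, and none higher, against 1.77% of all. The median of the 24 was -2.61, against 0.09 for all sequences, and 13 to 18 were lower under the other scalings. miR-375-3p, a miRNA known for its high level in islets, had 419998 and 408024 counts in unoxidized control RNA and 87 and 143 when oxidized.

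In the authors' deposited table, the 23-nucleotide miR-7a-5p had a fold change of -280 for oxidized control against oxidized methyltransferase RNA, the negative sign marking a higher level with the methyltransferase, and the 24-nucleotide miR-7b-5p had -1570. For methyltransferase RNA before against after oxidation the deposited fold changes were 3.13 (deposited adjusted p-value 0.00949) and 2.02 (0.176).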

How the data were processed

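Small RNAs of MIN6B1 cells were sequenced from total RNA with the QIAseq miRNA kit, per the labels' protocols. The aligner, build, trimming and use of molecular identifiers are not given in the sources used here. The authors deposited read counts per distinct sequence, with a normalized signal, a log2 (regularized) value, signed fold-change scores and p-values for 2 comparisons, per the file headers. The 12608 lines were merged by identifier to 11568 sequences, and the raw counts were used. The sequences and lists were chosen with earlier results of these data known.

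Counts of all sequences were fitted with edgeR 4.0.16 (R 4.3.3; TMM scaling, filterByExpr, quasi-likelihood test, 1 model of 4 groups) and called at a Benjamini-Hochberg adjusted p under 0.05. Standard errors were derived from the fold change and the F statistic. Shares and ratios within a library were compared by exact permutation tests. DESeq2 1.42.0 and limma 3.58.1 served as alternatives. The fit was tested on simulated data, where it called only a minority of the changes put in, so a sequence that was not called is not shown to be unchanged. Named sequences were the most abundant of each mature name, others whose count averaged 50 or more over the libraries, and the most abundant related forms. Listed totals set the precision, and a floor of 3 counts was used for groups at or near 0. Floors cover counting error only, while the standard errors include the estimated spread between libraries. Planned sequences of 24 nucleotides or more could not be compared among miR-7a-5p names, since none exceeds 23, and hairpin-only forms were used.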

Additional observations from a re-analysis of the deposited data

Results flagged for a closer look

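Oxidation acted differently under the 2 plasmids for both main sequences, by a test of the difference itself (the interaction of plasmid and oxidation in edgeR). For the 23-nucleotide miR-7a-5p the difference was 9.25 on the log2 scale, and for the 24-nucleotide miR-7b-5p it was 11.04, with adjusted p-values of 2.46e-06 and 2.32e-06. In both, each oxidized control library lay below every other library.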

How the results depend on the processing

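The 2 libraries a group, the loss of nearly all miRNA in oxidized control RNA and the choice of scaling limit these results. Oxidized control libraries hold few miR-7 counts, so ratios within them are imprecise. The main sequences of miR-7a-5p and miR-7b-5p kept their calls for the plasmid in oxidized RNA, oxidation of control RNA and the interaction under every alternative run. The cause of the changes below was not tested.

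Oxidation of methyltransferase RNA moved the main miR-7a-5p sequence by -0.35 with miRNA sequences fitted alone, -0.86 under total-count and -0.95 under upper-quartile scaling, all no longer called, and by -2.11 to -1.29 with 1 library left out. For the main miR-7b-5p sequence the same change was 0.31 with miRNA sequences alone. It was -1.25 summed by annotation and -1.26 with hairpin-only forms added, both called, and ran from -1.37 to -0.79 with 1 library left out, called without either oxidized control library (adjusted p 0.0493 and 0.0474, edgeR). With miRNA sequences alone, miR-7b-5p changed by 0.036 with the plasmid in unoxidized RNA, its 23-nucleotide form by 0.027 on oxidation of methyltransferase RNA, and 22-nucleotide miR-7a-5p by -0.63 with the plasmid in oxidized RNA. On oxidation of control RNA the 16-nucleotide miR-7a-5p changed by 5.97 (miRNA alone), 4.12 (total counts) and 1.48 (upper quartile), and the 20-nucleotide form by 3.16 and 1.31 under the first 2.

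The miR-7 sequences called higher with the plasmid in oxidized RNA numbered 8 of 36 with miRNA alone (13 lower) and 16 of 36 with total counts (11 lower). All sequences gave 339 higher and 98 lower of 865, and 2743 higher and 4794 lower of 9851. With only the libraries compared, 16 of the 27 miR-7 sequences tested were called higher, against 2177 of all 6880. The miR-7 sequences lower on oxidation of control RNA numbered 10 with miRNA alone (12 higher), against 411 and 91 of all 865. Those lower on oxidation of methyltransferase RNA numbered 6 under each of miRNA alone, total counts and the upper quartile, and 7 to 14 with 1 library left out. Among all sequences, miRNA alone, total counts and the upper quartile called 194 of 865, 630 of 9851 and 700 of 9851 lower there. The interaction called 7 positive and 12 negative with miRNA alone, against 310 and 91 of all. With total counts it called 14 positive and 10 negative, against 1992 and 4110 of all. DESeq2's Wald test called 3 of 28 miR-7 sequences lower with the plasmid in unoxidized RNA, where it called 68 lower and 36 higher among all sequences.

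The log2 ratio of miR-7a to miR-7b is given next for main sequences, hairpin-only forms added, 23 nucleotides, 24 nucleotides, and those 2 lengths with position 13 variants. The plasmid in oxidized RNA moved it by -2.63, -0.44, 0.044, -0.39, -0.0097 and -0.49. The plasmid in unoxidized RNA moved it by -0.74, -0.31, -0.25, -0.34, -0.18 and -0.28. Oxidation of control RNA moved it by 1.19, -0.46, -0.70, -0.52, -0.47 and -0.24. Oxidation of methyltransferase RNA moved it by -0.41, -0.57, -0.29 and -0.45 for the last 4. With 1 library left out the 4 comparisons ran from -2.17 to -1.80, -0.60 to -0.46, 0.62 to 0.76 and -0.96 to -0.59.

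The share of miR-7a-5p counts at 24 nucleotides or more is 0 by annotation. With hairpin-only forms, and with an added nucleotide too, it moved by 62.0 and 61.8 percentage points with the plasmid in oxidized RNA, 6.006 and 6.001 with it in unoxidized RNA, -51.6 and -51.5 on oxidation of control RNA and 4.41 and 4.31 on oxidation of methyltransferase RNA.

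The share of miR-7a-5p in mature counts moved with the plasmid in oxidized RNA by 1.13 points over all listed counts, 0.65 for the main sequence and -10.5 with hairpin-only forms in both counts. In unoxidized RNA it moved by -2.89 over all listed counts, -3.10 with hairpin-only forms in the total and -5.40 in both. Oxidation of control RNA gave -5.87 over all listed counts, 8.59 with hairpin-only forms in the total, -6.22 for the main sequence and -1.01 with them in both. Oxidation of methyltransferase RNA gave -1.85, -2.52, -2.19 and -6.06 in that order. With 1 library left out these 4 comparisons ran from -15.3 to -13.8, -4.96 to -3.23, 6.45 to 8.19 and -3.67 to -2.67.

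With a replicate block, the main miR-7a-5p sequence changed by 7.87 for the plasmid in oxidized RNA and by -1.71 on oxidation of methyltransferase RNA, and no call of a main sequence changed. The labels do not say whether the numbers pair libraries across groups. Across sequences, the difference between library 1 and library 2 of a group correlated at 0.457 between the unoxidized groups. It correlated at 0.128 between unoxidized control and oxidized methyltransferase RNA, and at -0.0552 to 0.0577 for the other 4 pairs of groups. The interaction uses all 8 libraries, so it has no value for only the libraries compared.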
